A study of Mus musculus with 16 samples.

Results

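Potassium channel genes were followed across 16 RNA-seq libraries of mouse hemi-brain. The genes were all protein-coding genes of the deposited table whose mouse symbol begins with Kcn, without Kcnj8, Kcnj10 and Kcnj13, which gave 91 of the 33289 genes in the table. The mice were C57BL/6J, aged 3 to 4 months and perfused with PBS, and tissue was taken 8 h after an injection. The 4 groups of 4 libraries each were LPS in mice labelled Lcn2-/-, LPS in wild-type mice, saline in mice labelled Lcn2-/- and saline in wild-type mice, while the series' design text speaks of 3 to 4 replicates per group. LPS (lipopolysaccharide) is a bacterial cell wall component that sets off an innate immune response, and Lcn2 encodes lipocalin-2, a secreted acute-phase protein that binds siderophores. A hemi-brain holds many regions and all brain cell types in 1 extract, and no construction of the Lcn2-/- allele is given in the labels. The deposited values were, by the name the authors gave the table, log2 RPKM (a read density scaled for transcript length and sequencing depth), adjusted by conditional quantile normalization. No counts came with them, and how deeply each value was read is unknown. The labels do not say that each library came from its own mouse, and p-values measure the spread between these libraries, which may be technical.

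Lcn2 itself was read in both genotype labels. It had 40.1, 34.1, 38.3 and 37.2 RPKM in LPS libraries labelled Lcn2-/-, against 71.5, 67.8, 66.7 and 82.7 RPKM in wild-type LPS libraries, with a log2 difference of -0.94 ± 0.31 (SE, adjusted p = 0.050), and lay at or under 0.351 RPKM in every saline library. That difference was not called, although every LPS library labelled Lcn2-/- lay below every wild-type LPS library. The transcript was present in the LPS libraries labelled Lcn2-/-, and a read of the transcript does not say whether a protein was made. Neuronal markers were high in all libraries: the summed level of 8 neuronal genes was 970.9 to 1000 RPKM and 986.5 to 1004 RPKM after LPS (labelled Lcn2-/- and wild type), against 904.6 to 975.7 RPKM and 957.1 to 989.8 RPKM after saline. One library stood apart, saline replicate 4 labelled Lcn2-/-. It had 17112 genes at 0.5 RPKM or more, against 16372 to 16497 in the other 15. Its title is the only one that ends in a letter, and the labels do not say whether it is a repeat library, so the number of independent samples in this group may be 3 or 4. The counts of calls and the values of some genes are also given without it. All other values that use this group include it.

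Potassium channels are pore proteins that let potassium leave or enter a cell along its gradient, and they set the resting potential, the shape of the action potential and the firing rate of neurons. Voltage-gated Kv subunits form tetramers around 1 pore, inward rectifiers hold the resting potential or answer to G proteins and ATP, and two-pore subunits carry leak currents. Auxiliary subunits (Kcnab, Kcne, Kcnip, Kcnmb) change the traffic or gating of the pore-forming subunits. Glial, vascular, choroid plexus and microglial cells have channels of their own, which take up potassium or set the membrane potential of the cell.

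Of the 91 genes, 72 passed the filter on low values (0.5 RPKM or more in at least 3 libraries) and were tested. The other 19 were Kcna7, Kcna10, Kcne1, Kcne3, Kcng3, Kcnh8, Kcnj1, Kcnj5, Kcnj15, Kcnk5, Kcnk7, Kcnk15, Kcnk16, Kcnk18, Kcnmb1, Kcnmb3, Kcnn4, Kcnq1 and Kcnv2. Their geometric means over 16 libraries ran from 0.00632 RPKM (Kcne1) to 0.254 RPKM (Kcnj5). RPKM is scaled for transcript length, so levels are set side by side between genes as a description. The counting method is not stated, and reads of overlapping genes may enter some levels. By geometric mean over all libraries, 15 genes lay at 16 RPKM or more, 24 between 4 and 16, 22 between 1 and 4, and 30 under 1, of which 11 were tested.

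The highest level was that of Kcnab2, a beta subunit of Kv1 channels, at 50.9 RPKM. Also among the highest were Kcnj4 (an inward rectifier, 34.5 RPKM) and Kcnk1 (a two-pore subunit, 31.0 RPKM). Kcna1 (a Kv1 pore subunit of axons, 27.2 RPKM) and Kcnip2 (a calcium-binding partner of Kv4 channels, 26.4 RPKM) followed. Neighbours in this order could overlap: Kcnj4 ran from 29.1 to 42.5 RPKM over the libraries and Kcnk1 from 28.7 to 35.2 RPKM. In other families the highest gene was Kcnt1 at 24.7 RPKM among calcium- or sodium-activated channels, Kcnd2 at 17.7 RPKM in Kv4, Kcnh3 at 15.9 RPKM in the EAG, ERG and ELK group and Kcnf1 at 15.4 RPKM among silent subunits. Levels within a family could spread widely, and the 8 Kv1 genes ran from 0.0161 RPKM (Kcna7) to 27.2 RPKM (Kcna1).

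**Figure D1:**
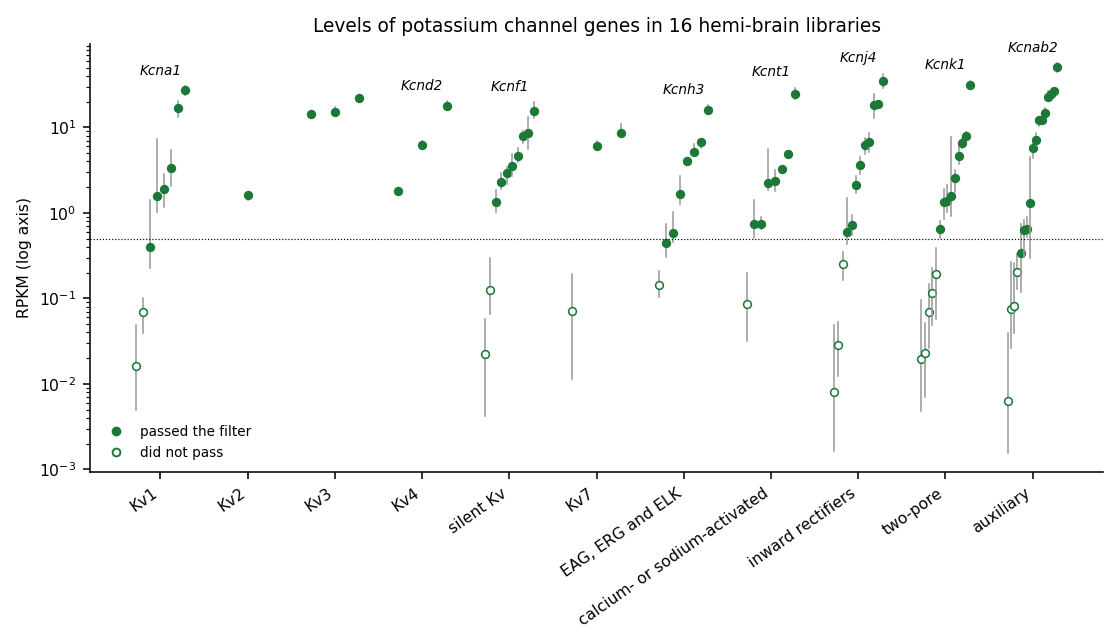
Levels of potassium channel genes by family, as RPKM on a log axis. Points are geometric means over 16 libraries, lines run from the lowest to the highest library, filled points passed the filter and the dotted line is 0.5 RPKM; a named gene leads its family, up to Kcnab2 at 50.9 RPKM.

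After LPS in the libraries labelled Lcn2-/-, 36 of the 72 tested genes were called at an adjusted p under 0.05, 8 higher and 28 lower. Over all 17349 genes tested, 48.3% were called, 20.7% higher and 27.7% lower. The 28 include Kcna3 and Kcnrg, which reached the filter limit of 0.5 RPKM in 0 LPS libraries of this label. The potassium channel genes had a median log2 difference of -0.10, against -0.028 over all genes tested. After LPS in wild type, 20 of the 72 were called, 8 higher and 12 lower, which is 27.8% beside 25.3% of all genes (11.4% higher, 13.9% lower). The median was -0.026 in wild type, against -0.025 over all genes. The groups did not overlap for 30 genes (41.7%) in libraries labelled Lcn2-/-, beside 42.4% of all genes, and for 25 (34.7%) in wild type, beside 32.4%. Potassium channel genes were thus called about as often as other genes. The counts by family below are of few genes each and are to be read beside these shares.

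Among the potassium channel genes, the balance of higher and lower calls turned with the treatment of GC content and length in wild type alone. Under the Lcn2-/- label most calls stayed falls. With the trends of both removed, the potassium channel genes gave 10 higher and 23 lower after LPS in libraries labelled Lcn2-/- and 11 higher and 8 lower in wild type, while all genes gave 4521 higher and 3969 lower, and 2480 higher and 1945 lower. The falls of Kcnc4, Kcnk10 and Kcnn3 under the Lcn2-/- label, and of Kcnip3, Kcnj9 and Kcnj12 in wild type, were among those not called in that fit. With the libraries labelled Lcn2-/- fitted alone, 10 calls were lost, among them those of Kcna2, Kcna5, Kcnab1, Kcnc4, Kcnk10, Kcnma1, Kcnn3 and Kcnrg. The bulk tissue sets another limit: fewer cells of a type and less RNA per cell cannot be told apart. The lower end of the scale also moved with the injection, since the 25th percentile of all genes lay between -5.78 and -4.58 (log2 RPKM) in LPS libraries and between -4.12 and -2.73 in saline libraries, and its part in differences of genes near 0.5 RPKM was not tested.

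Markers of brain regions moved in these comparisons as well. After LPS in libraries labelled Lcn2-/-, 4 of 6 striatal markers fell (among them Adora2a, Drd1 and Drd2; median of the 6, -0.42), and their summed level was 110 to 120.3 RPKM after LPS, against 121.8 to 128.4 RPKM after saline. In wild type Adora2a fell and Ppp1r1b rose, and the sums of 105.7 to 127.8 RPKM after LPS and 114.2 to 116.5 RPKM after saline overlapped. The 3 Purkinje cell markers (Pcp2, Calb1, Ppp1r17) all rose with the Lcn2-/- label, by 0.19 to 0.28 on the log2 scale, with a sum of 98.3 to 108 RPKM after LPS, against 83.7 to 90.3 RPKM after saline. In wild type limma called 0 of these 3, 0 had an unadjusted p under 0.05, and the sums were 83.3 to 91.5 RPKM after LPS, against 89.7 to 98.1 RPKM after saline. Of 4 cerebellar granule cell markers 1 rose and 2 fell with the Lcn2-/- label. Hippocampal markers gave 1 rise and 2 falls of 4 under the Lcn2-/- label and 2 rises and 1 fall in wild type, thalamic markers 1 rise of 4 under the Lcn2-/- label and 1 rise and 1 fall in wild type, and hypothalamic markers 1 rise of 5 under the Lcn2-/- label. Between the labels after LPS, 2 of the 3 Purkinje cell markers lay higher with Lcn2-/-, Pcp2 (0.33 ± 0.052) and Ppp1r17 (0.25 ± 0.073), and limma called 0 of 6 striatal markers, of which 4 had an unadjusted p under 0.05. Between the labels after saline, limma called 0 of 6 striatal markers, of which 2 had an unadjusted p under 0.05. Their log2 differences ran from -0.062 to 0.26. The striatal sums of the saline libraries did not overlap, at 121.8 to 128.4 RPKM labelled Lcn2-/- and 114.2 to 116.5 RPKM in wild type. Whether the regions held in each extract differed, and what part that had in the potassium channel values, was not tested.

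The LPS comparisons in the 2 genotype labels share no library. Called in both were 16 genes, all in the same direction. Kcna1, Kcna5, Kcng2 and Kcnt1 rose, and 12 fell, among them Kcna4, Kcna6, Kcne2, Kcng1, Kcnip3, Kcnj9, Kcnj12, Kcnj16, Kcnk3, Kcnk13 and Kcnv1. These were 44.4% of the calls in libraries labelled Lcn2-/- and 80.0% of the calls in wild type; over all genes, 75.9% of the wild-type calls were also called under the other label. A further 20 genes were called under the Lcn2-/- label alone and 4 (Kcnab2, Kcnab3, Kcnk1 and Kcnt2) in wild type alone, and 32 in neither. The log2 differences of these 32 ran from -0.42 (Kcnh6) to 0.45 (Kcne4) with the Lcn2-/- label and from -0.27 (Kcnj14) to 0.33 (Kcnk6) in wild type. Besides genes described by family they include Kcnb2, Kcnc1, Kcnc2, Kcnd1, Kcnd3, Kcne1l, Kcnh1, Kcnh2, Kcnh7, Kcnq3, Kcnq5 and Kcnu1. Across the 72 genes the log2 differences of both comparisons correlated at a Pearson r of 0.72, and over all genes at 0.83, as a description across genes, which are not independent replicates.

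**Figure D2:**
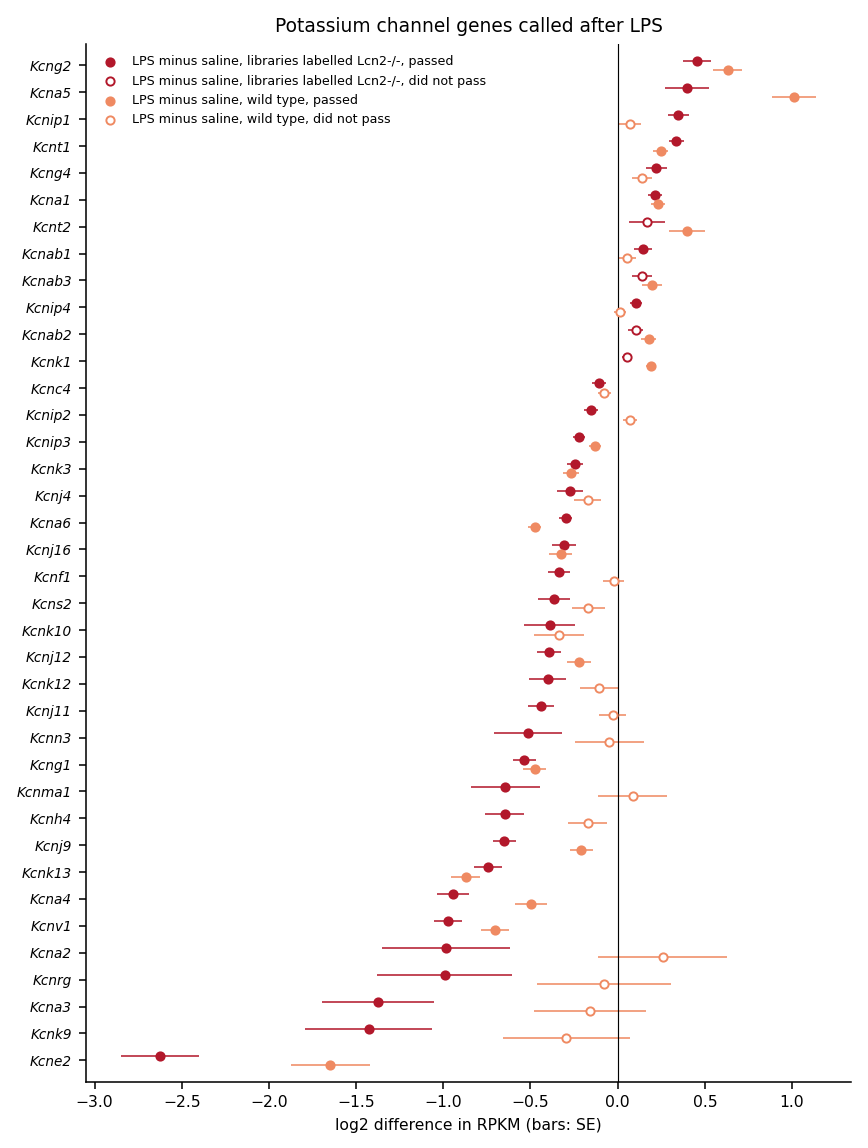
Log2 differences (LPS minus saline) of potassium channel genes called in either LPS comparison, libraries labelled Lcn2-/- in dark red above wild type in orange, bars giving the SE. Filled points passed the test; Kcne2 at the foot shows the largest falls, -2.63 and -1.65, and Kcng2 and Kcna5 at the top the largest rises.

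Among the Kv1 genes, which form delayed-rectifier and A-type channels of axons and of immune and muscle cells, 6 of 8 were tested. After LPS in libraries labelled Lcn2-/- 2 rose (Kcna1, Kcna5) and 3 fell (Kcna2, Kcna4, Kcna6), leaving aside Kcna3, and in wild type 2 rose (Kcna1, Kcna5) and 2 fell (Kcna4, Kcna6). Over all genes, 48.3% and 25.3% were called (labelled Lcn2-/- and wild type). Kcna1, Kcna5 and Kcna6 lie side by side on the minus strand of chromosome 6 (GRCm38, GENCODE vM21), with 104985 bases between Kcna5 and Kcna1 and 61945 bases between Kcna1 and Kcna6. Kcna5 and Kcna1 rose and Kcna6 fell. The 250 bases before the annotated start of Kcna5 and of Kcna6 are given here because these neighbours moved in opposite directions (RefSeq, GRCm38.p6, minus strand, 5′ to 3′; capitals mark TGACG or its complement CGTCA, a half-site of the cAMP response element).
Kcna5, chr6:126535556-126535805: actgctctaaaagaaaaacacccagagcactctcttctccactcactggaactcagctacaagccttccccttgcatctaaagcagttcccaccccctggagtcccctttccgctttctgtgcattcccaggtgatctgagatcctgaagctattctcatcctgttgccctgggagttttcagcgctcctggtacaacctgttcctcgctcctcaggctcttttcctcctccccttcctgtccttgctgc
Kcna6, chr6:126740675-126740924: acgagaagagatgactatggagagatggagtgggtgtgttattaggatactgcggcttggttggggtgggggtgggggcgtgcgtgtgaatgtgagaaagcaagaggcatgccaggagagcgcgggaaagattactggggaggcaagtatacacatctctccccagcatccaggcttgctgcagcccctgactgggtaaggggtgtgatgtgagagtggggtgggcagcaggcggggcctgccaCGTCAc
The half-site occurs once before Kcna6 and not in the window of Kcna5; the RefSeq start of Kcna5 used for this window is not inside a GENCODE transcript of the gene.

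Kcna5 encodes a Kv1 subunit best known from heart and vascular muscle and also found in glia. It had 2.44, 2.06, 1.76 and 2.57 RPKM in LPS libraries labelled Lcn2-/-, against 1.71, 1.68, 1.34 and 1.95 RPKM in saline libraries of that label. In wild type, Kcna5 had 2.86, 2.49, 2.79 and 2.57 RPKM after LPS, against 1.27, 1.52, 1.17 and 1.38 RPKM after saline. Every wild-type LPS library lay above every wild-type saline library, while under the Lcn2-/- label LPS replicate 3 lay within the saline range. The log2 difference was 0.40 ± 0.13 (SE, adjusted p = 0.018) in libraries labelled Lcn2-/- and 1.01 ± 0.13 (SE, adjusted p = 1.9e-05) in wild type. In libraries labelled Lcn2-/- the call ended without LPS replicate 1, LPS replicate 4 or saline replicate 3 (0.30 to 0.34, adjusted p 0.055 to 0.063). The mural cell markers beside it did not rise as a list: 3 of 6 fell under the Lcn2-/- label, and in wild type 4 fell and 1 (Kcnj8, the ATP-sensitive channel of pericytes) rose.

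Kcna1, which repolarizes axons, had 29.4, 30.3, 29.4 and 29.2 RPKM in LPS libraries labelled Lcn2-/-, against 24.6, 24.99, 24.5 and 27.9 RPKM in saline libraries of that label. In wild type, Kcna1 had 28.9, 29.5, 29.4 and 29.3 RPKM after LPS, against 23.7, 25.99, 25.04 and 25.2 RPKM after saline. The LPS libraries were higher than all saline libraries of the same label, by 0.21 ± 0.039 (SE, adjusted p = 3.8e-04) in libraries labelled Lcn2-/- and 0.23 ± 0.039 (SE, adjusted p = 3.5e-04) in wild type on the log2 scale. Kcna6, a Kv1 subunit of neurons, moved the other way, with 15.2, 15.4, 16.01 and 15.4 RPKM in LPS libraries labelled Lcn2-/-, against 18.9, 18.8, 20.2 and 18.4 RPKM in saline libraries of that label. In wild type, Kcna6 had 13.3, 13.8, 14.4 and 13.6 RPKM after LPS, against 18.7, 19.3, 19.97 and 18.6 RPKM after saline. None of its groups overlapped between LPS and saline, and the log2 differences were -0.30 ± 0.037 (SE, adjusted p = 8.3e-06) under the Lcn2-/- label and -0.48 ± 0.037 (SE, adjusted p = 6.9e-08) in wild type. Of the exon bases of Kcna6, 39.6% are shared with Gm26673, a gene on the opposite strand. Gm26673 also fell after LPS, with log2 differences of -0.55 ± 0.095 (SE, adjusted p = 2.2e-04) under the Lcn2-/- label and -0.34 ± 0.095 (SE, adjusted p = 0.014) in wild type. The labels do not say whether the counting used strand, so reads of the 2 genes cannot be told apart.

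Kcna4, the A-type Kv1 subunit, had 2.54, 2.07, 2.23 and 2.35 RPKM in LPS libraries labelled Lcn2-/-, against 3.98, 4.16, 4.24 and 5.42 RPKM in saline libraries of that label. In wild type, Kcna4 had 2.95, 2.85, 3.22 and 2.79 RPKM after LPS, against 4.43, 3.97, 3.88 and 4.39 RPKM after saline. It was lower after LPS in every library of either label, with log2 differences of -0.95 ± 0.091 (SE, adjusted p = 6.2e-07) in libraries labelled Lcn2-/- and -0.50 ± 0.091 (SE, adjusted p = 6.9e-04) in wild type. Kcna2, a partner of Kcna1 in axons, had 1.03, 1.08, 1.47 and 1.25 RPKM in LPS libraries labelled Lcn2-/-, against 1.86, 1.57, 1.45 and 7.30 RPKM in saline libraries of that label. In wild type, Kcna2 had 1.57, 1.76, 1.37 and 1.75 RPKM after LPS, against 1.66, 1.51, 1.13 and 1.14 RPKM after saline. Saline replicate 4 labelled Lcn2-/- stood far above the rest, and the groups overlapped under both labels. Under the Lcn2-/- label the difference was -0.98 ± 0.37 (SE, adjusted p = 0.038), and without that library it was -0.44 ± 0.16 (SE, adjusted p = 0.029). The call ended without LPS replicate 1, 2 or 4 of that label (-1.004 to -0.911, adjusted p 0.061 to 0.083), and in wild type the gene was not called (0.26 ± 0.37 SE, adjusted p = 0.68).

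Kcna3 encodes the Kv1 channel of T cells, macrophages and microglia. It had 0.227, 0.239, 0.224 and 0.307 RPKM in LPS libraries labelled Lcn2-/-, against 0.529, 0.396, 0.566 and 1.42 RPKM in saline libraries of that label. In wild type, Kcna3 had 0.341, 0.425, 0.352 and 0.406 RPKM after LPS, against 0.602, 0.489, 0.376 and 0.291 RPKM after saline. Under the Lcn2-/- label all LPS libraries lay below all saline libraries, with a log2 difference of -1.37 ± 0.32 (SE), or -0.99 ± 0.24 (SE) without saline replicate 4, and in wild type the groups overlapped (-0.16 ± 0.32 SE). Kcna3 reached the filter limit of 0.5 RPKM in 3 saline libraries labelled Lcn2-/-, 1 wild-type saline library and 0 LPS libraries. It passed the filter only through the libraries where it is high, so these differences are a description, with no test. Microglial markers fell beside it: 6 of 6 in libraries labelled Lcn2-/- and 5 of 6 in wild type, with a summed level of 47.5 to 52.8 RPKM and 49.0 to 55.3 RPKM after LPS, against 66.8 to 75.8 RPKM and 70.1 to 73.9 RPKM after saline. Their part in the values of Kcna3 was not tested.

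**Figure D3:**
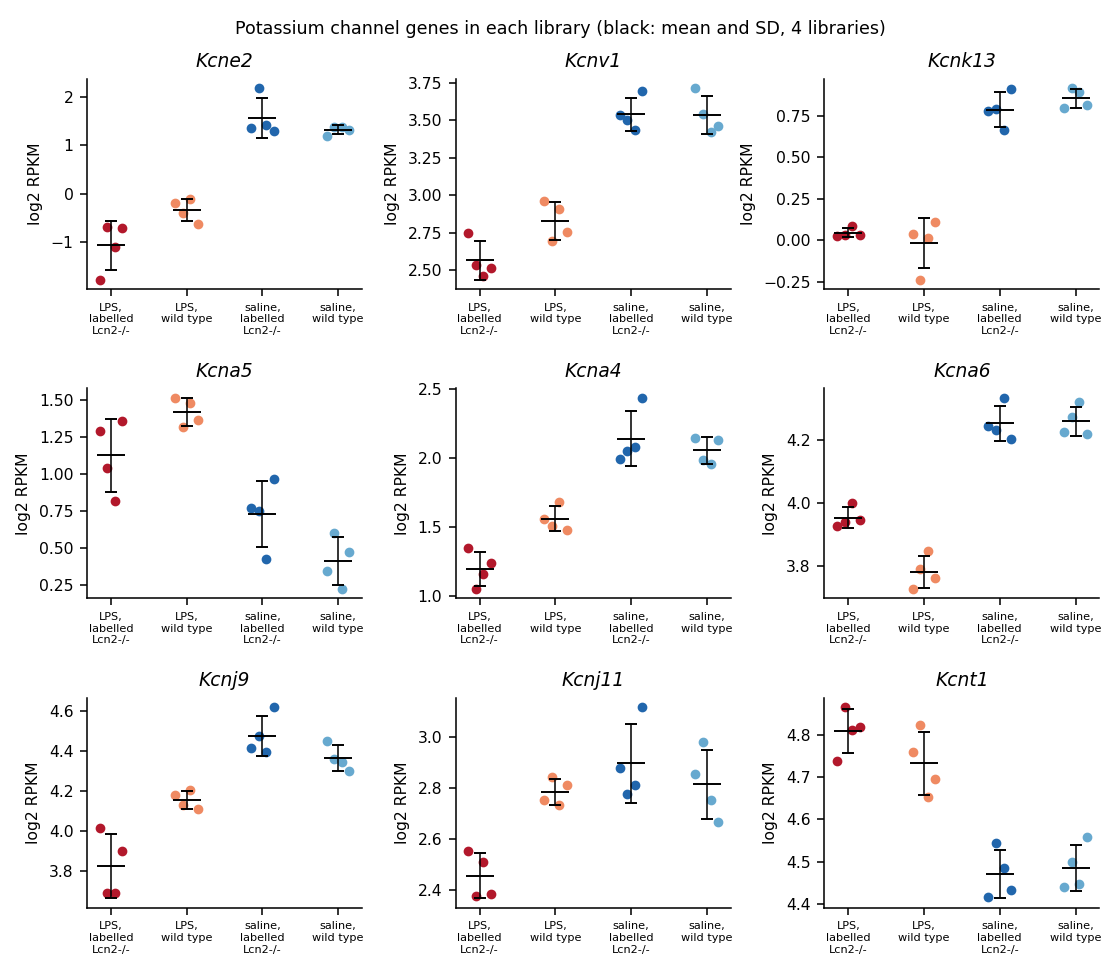
Log2 RPKM of 9 potassium channel genes in each library, by group, with the mean and SD of 4 libraries in black. Kcne2, Kcnv1, Kcnk13, Kcna4, Kcna6 and Kcnj9 lay lower in every LPS library than in every saline library of the same label, and Kcnt1 higher.

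In Kv3, which lets fast-spiking neurons fire at high rates, Kcnc4 was called lower under the Lcn2-/- label, at -0.11 ± 0.038 (SE, adjusted p = 0.029), and without LPS replicate 1 or 4 or saline replicate 2 of that label it was not (-0.097 to -0.081, adjusted p 0.070 to 0.095). In Kv4, limma called 0 of 3 genes in either LPS comparison, and 0 had an unadjusted p under 0.05. Kcnd2, the main dendritic A-type subunit, had 16.8, 17.96, 17.1 and 16.6 RPKM in LPS libraries labelled Lcn2-/-, against 18.7, 17.5, 17.1 and 16.3 RPKM in saline libraries of that label. In wild type, Kcnd2 had 17.7, 18.7, 20.1 and 17.9 RPKM after LPS, against 19.5, 18.2, 16.2 and 16.9 RPKM after saline. The log2 differences were -0.023 ± 0.058 (SE, adjusted p = 0.77) and 0.076 ± 0.058 (SE, adjusted p = 0.39) (labelled Lcn2-/- and wild type), and the LPS and saline libraries overlapped under both labels.

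Silent subunits (Kcnf, Kcng, Kcns, Kcnv) form no channel alone and join Kv2 subunits, whose current they alter. Of 10 genes 8 were tested, and 6 were called in libraries labelled Lcn2-/- (2 higher, 4 lower) and 3 in wild type (1 higher, 2 lower). That is 75.0% and 37.5%, beside 48.3% and 25.3% of all genes. Kcnv1 had 6.73, 5.81, 5.50 and 5.73 RPKM in LPS libraries labelled Lcn2-/-, against 11.6, 11.3, 10.8 and 12.9 RPKM in saline libraries of that label. In wild type, Kcnv1 had 7.80, 6.47, 7.52 and 6.76 RPKM after LPS, against 13.1, 11.6, 10.7 and 11.0 RPKM after saline. Both labels showed a clear gap between LPS and saline libraries, with log2 differences of -0.97 ± 0.081 (SE, adjusted p = 1.1e-07) with Lcn2-/- and -0.70 ± 0.081 (SE, adjusted p = 6.8e-06) in wild type. Kcng1 had 3.11, 3.08, 3.09 and 3.03 RPKM in LPS libraries labelled Lcn2-/-, against 4.50, 3.96, 4.61 and 4.81 RPKM in saline libraries of that label. In wild type, Kcng1 had 2.85, 2.73, 3.30 and 2.80 RPKM after LPS, against 4.23, 3.93, 4.17 and 3.87 RPKM after saline. It fell under either label, -0.54 ± 0.067 (SE, adjusted p = 9.2e-06) with Lcn2-/- and -0.48 ± 0.067 (SE, adjusted p = 5.4e-05) in wild type.

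Kcng2 went up. It had 1.67, 1.51, 1.53 and 1.62 RPKM in LPS libraries labelled Lcn2-/-, against 1.03, 1.25, 1.19 and 1.16 RPKM in saline libraries of that label. In wild type, Kcng2 had 1.83, 1.66, 1.51 and 1.68 RPKM after LPS, against 1.16, 1.03, 1.10 and 1.02 RPKM after saline. The LPS libraries were all higher than the saline libraries of their label, by 0.46 ± 0.082 (SE, adjusted p = 3.0e-04) in libraries labelled Lcn2-/- and 0.63 ± 0.082 (SE, adjusted p = 2.4e-05) in wild type. Kcng4 had 8.30, 9.01, 8.35 and 8.04 RPKM in LPS libraries labelled Lcn2-/-, against 6.57, 7.33, 7.49 and 7.51 RPKM in saline libraries of that label. In wild type, Kcng4 had 7.94, 9.15, 8.15 and 8.07 RPKM after LPS, against 7.51, 7.76, 7.04 and 7.95 RPKM after saline. It was called under the Lcn2-/- label (0.22 ± 0.058 SE, adjusted p = 0.0052) but not in wild type (0.14 ± 0.058 SE, adjusted p = 0.098). Kcnf1, the most abundant silent subunit, had 14.6, 12.8, 13.7 and 14.7 RPKM in LPS libraries labelled Lcn2-/-, against 16.6, 17.3, 16.9 and 19.7 RPKM in saline libraries of that label. In wild type, Kcnf1 had 15.7, 13.8, 15.3 and 15.6 RPKM after LPS, against 16.6, 14.8, 14.7 and 15.2 RPKM after saline. It fell under the Lcn2-/- label, -0.34 ± 0.062 (SE, adjusted p = 3.8e-04), with no overlap, while the wild-type groups overlapped (-0.023 ± 0.062 SE, adjusted p = 0.85). Kcns2 was lower under the Lcn2-/- label alone, at -0.36 ± 0.093 (SE, adjusted p = 0.0046), and Kcns1 and Kcns3 were not called.

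In the EAG, ERG and ELK group (Kcnh) 1 of 7 tested genes was called: Kcnh4, an ELK subunit of forebrain, fell under the Lcn2-/- label, -0.65 ± 0.11 (SE, adjusted p = 2.1e-04), and had -0.17 ± 0.11 in wild type. Kcnh4 also lay higher in every saline library labelled Lcn2-/- than in every wild-type saline library. After LPS under that label 4 of 6 striatal markers also fell, and in wild type 1 fell and 1 rose. Their part in the fall of Kcnh4 was not tested. Kcnh3, the most abundant of the group, had 17.4, 14.4, 15.96 and 14.5 RPKM in LPS libraries labelled Lcn2-/-, against 16.3, 18.1, 17.8 and 15.5 RPKM in saline libraries of that label. In wild type, Kcnh3 had 17.0, 14.8, 14.4 and 15.6 RPKM after LPS, against 17.0, 15.4, 15.3 and 15.4 RPKM after saline. These libraries overlapped in either comparison, with -0.12 ± 0.070 (SE, adjusted p = 0.16) under the Lcn2-/- label and -0.033 ± 0.070 (SE, adjusted p = 0.79) in wild type.

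The Kcnma, Kcnn and Kcnt genes, whose channels answer to calcium or sodium, were grouped with Kcnu1 by symbol alone. Of these 7 tested genes 1 rose and 2 fell with the Lcn2-/- label, and in wild type 2 rose and 0 fell. That is 42.9% and 28.6% called, beside 48.3% and 25.3% of all genes. The risers were the sodium-activated channels, Kcnt1 under both labels and Kcnt2 in wild type. Kcnt1 had 26.7, 29.1, 28.1 and 28.2 RPKM in LPS libraries labelled Lcn2-/-, against 21.4, 23.3, 22.4 and 21.6 RPKM in saline libraries of that label. In wild type, Kcnt1 had 27.1, 28.3, 25.1 and 25.9 RPKM after LPS, against 21.7, 22.6, 21.8 and 23.5 RPKM after saline. Every LPS library was above every saline library of its label, and the log2 differences were 0.34 ± 0.043 (SE, adjusted p = 1.1e-05) with the Lcn2-/- label and 0.25 ± 0.043 (SE, adjusted p = 4.0e-04) in wild type. Kcnt2 had 2.5, 2.70, 2.44 and 2.12 RPKM in LPS libraries labelled Lcn2-/-, against 2.25, 2.08, 2.12 and 2.21 RPKM in saline libraries of that label. In wild type, Kcnt2 had 2.77, 2.90, 3.19 and 2.54 RPKM after LPS, against 2.36, 2.54, 1.78 and 2.03 RPKM after saline. It was called in wild type (0.40 ± 0.10 SE, adjusted p = 0.010), where the lowest LPS library lay just under the highest saline library, and not under the Lcn2-/- label (0.17 ± 0.10 SE, adjusted p = 0.19). Kcnma1, the large-conductance calcium-activated channel, had 1.86, 1.88, 1.97 and 2.08 RPKM in LPS libraries labelled Lcn2-/-, against 2.42, 2.52, 2.49 and 5.61 RPKM in saline libraries of that label. In wild type, Kcnma1 had 2.13, 2.25, 1.92 and 2.31 RPKM after LPS, against 2.31, 2.04, 1.93 and 1.85 RPKM after saline. The call under the Lcn2-/- label, -0.64 ± 0.20 (SE, adjusted p = 0.014), held without saline replicate 4 at a smaller size, -0.35 ± 0.080 (SE, adjusted p = 0.0019), and wild type gave 0.087 ± 0.20. Kcnn3, a small-conductance channel at 0.735 RPKM, was called lower under the Lcn2-/- label (-0.51 ± 0.20 SE, adjusted p = 0.041) and not without that library (-0.29 ± 0.15, SE, adjusted p = 0.12). Its call also ended without LPS replicate 1, 3 or 4 of that label, wild-type LPS replicate 1, 2 or 4, or wild-type saline replicate 4, over a range of -0.56 to -0.29. Kcnn1 and Kcnn2 were not called. Kcnn4, the calcium-activated channel of immune cells, was not tested. It had 0.148, 0.0697, 0.0604 and 0.0373 RPKM in LPS libraries labelled Lcn2-/-, against 0.0870, 0.137, 0.148 and 0.0516 RPKM in saline libraries of that label. In wild type, Kcnn4 had 0.0835, 0.109, 0.0316 and 0.0389 RPKM after LPS, against 0.134, 0.136, 0.198 and 0.105 RPKM after saline. All 16 values were under the filter limit.

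Inward rectifiers held 9 tested genes of 12, and none was called higher: 5 fell in libraries labelled Lcn2-/- and 3 in wild type. That is 55.6% and 33.3% called, beside 48.3% and 25.3% of all genes (27.7% and 13.9% lower). Kcnj9, a subunit of the G protein-gated channels through which opioid, GABA-B and other receptors quiet neurons, had 16.2, 12.9, 12.9 and 14.9 RPKM in LPS libraries labelled Lcn2-/-, against 21.3, 22.2, 21.0 and 24.5 RPKM in saline libraries of that label. In wild type, Kcnj9 had 18.1, 17.5, 18.4 and 17.2 RPKM after LPS, against 21.9, 20.5, 20.3 and 19.7 RPKM after saline. It was lower in every LPS library than in the saline libraries of its label, at -0.65 ± 0.067 (SE, adjusted p = 1.3e-06) under the Lcn2-/- label and -0.21 ± 0.067 (SE, adjusted p = 0.033) in wild type. The wild-type call ended without LPS replicate 1, 2 or 4 or saline replicate 1, 2 or 3 (-0.22 to -0.18, adjusted p 0.053 to 0.091). Its partner Kcnj3, at 18.6 RPKM, was not called (-0.049 ± 0.042 with the Lcn2-/- label, -0.013 ± 0.042 in wild type), and Kcnj6, another such subunit, lay at 0.591 RPKM and was not called.

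Kcnj11, the pore of the ATP-sensitive channel that links metabolism to excitability, had 5.87, 5.19, 5.70 and 5.23 RPKM in LPS libraries labelled Lcn2-/-, against 7.37, 6.86, 7.02 and 8.68 RPKM in saline libraries of that label. In wild type, Kcnj11 had 6.75, 7.19, 6.65 and 7.02 RPKM after LPS, against 7.25, 7.89, 6.75 and 6.35 RPKM after saline. The groups were apart under the Lcn2-/- label (-0.44 ± 0.076 SE, adjusted p = 2.3e-04) and overlapped in wild type (-0.029 ± 0.076 SE, adjusted p = 0.84). Kcnj12, a strong rectifier, fell under both labels, -0.39 ± 0.068 (SE, adjusted p = 2.3e-04) with Lcn2-/- and -0.22 ± 0.068 (SE, adjusted p = 0.026) in wild type, the second not without LPS replicate 1, 2 or 4 or saline replicate 2, 3 or 4 (-0.22 to -0.19, adjusted p 0.053 to 0.082). Kcnj4, the most abundant rectifier and another strong one, had 34.9, 32.0, 31.2 and 29.2 RPKM in LPS libraries labelled Lcn2-/-, against 37.7, 42.5, 40.3 and 33.3 RPKM in saline libraries of that label. In wild type, Kcnj4 had 36.7, 32.2, 29.1 and 31.4 RPKM after LPS, against 37.7, 36.1, 36.2 and 35.3 RPKM after saline. It was called under the Lcn2-/- label (-0.27 ± 0.076 SE, adjusted p = 0.0079), with overlap, and not in wild type (-0.17 ± 0.076 SE, adjusted p = 0.11).

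Kcnj16 encodes the subunit that joins the main rectifier of astrocytes. It had 4.84, 6.07, 5.41 and 5.69 RPKM in LPS libraries labelled Lcn2-/-, against 6.51, 6.72, 6.96 and 6.97 RPKM in saline libraries of that label. In wild type, Kcnj16 had 5.10, 5.71, 6.15 and 5.61 RPKM after LPS, against 6.72, 7.42, 7.32 and 6.81 RPKM after saline. All LPS libraries lay below the saline libraries, and the log2 differences were -0.31 ± 0.067 (SE, adjusted p = 0.0015) and -0.33 ± 0.067 (SE, adjusted p = 0.0017) (labelled Lcn2-/- and wild type). Astrocyte markers moved the other way: 3 of 6 rose in libraries labelled Lcn2-/- and 4 of 6 in wild type, 0 fell, and their sum was 358.6 to 401.9 RPKM and 357.6 to 387.3 RPKM after LPS, against 265.2 to 293.2 RPKM and 269.7 to 283.4 RPKM after saline.

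Two-pore genes, whose subunits carry background leak, gave 5 falls and 0 rises of 9 tested genes under the Lcn2-/- label, and 2 falls and 1 rise in wild type. These calls are 55.6% and 33.3%, beside 48.3% and 25.3% of all genes (27.7% and 13.9% lower). Kcnk13, the leak channel of microglia, had 1.02, 1.03, 1.06 and 1.02 RPKM in LPS libraries labelled Lcn2-/-, against 1.72, 1.73, 1.58 and 1.89 RPKM in saline libraries of that label. In wild type, Kcnk13 had 1.03, 0.850, 1.01 and 1.08 RPKM after LPS, against 1.74, 1.89, 1.85 and 1.76 RPKM after saline. The LPS libraries of both labels stood together, well below the saline libraries, at -0.74 ± 0.081 (SE, adjusted p = 2.2e-06) with Lcn2-/- and -0.87 ± 0.081 (SE, adjusted p = 5.9e-07) in wild type. Microglial markers fell with it, P2ry12 (a purinergic receptor of resting microglia) at -2.16 ± 0.11 (SE, adjusted p = 3.3e-10) with the Lcn2-/- label and -2.07 ± 0.11 (SE, adjusted p = 1.1e-09) in wild type. Csf1r (the receptor microglia need to survive) stood at -0.18 ± 0.035 (SE, adjusted p = 5.8e-04) and -0.13 ± 0.035 (SE, adjusted p = 0.011) (labelled Lcn2-/- and wild type). Their part in the result was not tested. The 250 bases before the start of Kcnk13 (RefSeq, GRCm38.p6, plus strand, 5′ to 3′) are shown because this is the channel of microglia and it fell under both labels. No capitals occur because no half-site was found.
Kcnk13, chr12:99964249-99964498: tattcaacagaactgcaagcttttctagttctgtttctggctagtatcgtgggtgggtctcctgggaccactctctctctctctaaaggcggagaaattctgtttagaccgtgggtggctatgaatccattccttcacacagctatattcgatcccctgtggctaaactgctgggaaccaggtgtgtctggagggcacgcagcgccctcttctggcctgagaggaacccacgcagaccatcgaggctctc

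Kcnk9, an acid-sensitive leak channel of cerebellar granule and other neurons, had 0.910, 1.17, 1.11 and 0.973 RPKM in LPS libraries labelled Lcn2-/-, against 2.18, 1.61, 2.24 and 7.70 RPKM in saline libraries of that label. In wild type, Kcnk9 had 1.58, 1.33, 1.08 and 1.34 RPKM after LPS, against 1.65, 2.59, 1.10 and 1.46 RPKM after saline. Under the Lcn2-/- label its log2 difference was -1.43 ± 0.36 (SE, adjusted p = 0.0045), or -0.94 ± 0.22 (SE, adjusted p = 0.0023) without saline replicate 4, which stood at 7.70 RPKM against a geometric mean of 1.99 RPKM in replicates 1 to 3. Wild type overlapped (-0.29 ± 0.36 SE, adjusted p = 0.63). Kcnk3, its close relative, had 5.93, 6.32, 6.12 and 5.78 RPKM in LPS libraries labelled Lcn2-/-, against 6.89, 7.37, 7.29 and 7.07 RPKM in saline libraries of that label. In wild type, Kcnk3 had 5.95, 6.34, 5.71 and 6.22 RPKM after LPS, against 7.31, 6.82, 7.44 and 7.59 RPKM after saline. It fell under either label without overlap (-0.25 ± 0.046 SE, adjusted p = 4.3e-04, with Lcn2-/-, -0.27 ± 0.046 SE, adjusted p = 3.7e-04, in wild type). Kcnk1, the most abundant two-pore gene, had 31.2, 31.4, 31.4 and 30.3 RPKM in LPS libraries labelled Lcn2-/-, against 29.7, 29.6, 30.1 and 30.3 RPKM in saline libraries of that label. In wild type, Kcnk1 had 34.2, 33.2, 35.2 and 32.3 RPKM after LPS, against 28.7, 29.2, 29.6 and 30.4 RPKM after saline. It rose in wild type (0.19 ± 0.030 SE, adjusted p = 1.4e-04), where no libraries overlapped, and was not called under the Lcn2-/- label (0.055 ± 0.030 SE, adjusted p = 0.14). Kcnk12, a relative of Kcnk13, fell under the Lcn2-/- label (-0.40 ± 0.11 SE, adjusted p = 0.0065); Kcnk10 fell there too (-0.39 ± 0.14 SE, adjusted p = 0.035), but not without LPS replicate 1, LPS replicate 4 or saline replicate 4 (-0.33 to -0.26, adjusted p 0.10 to 0.12). Kcnk6, found in immune and vascular cells among others, had 0.742, 0.572, 0.515 and 0.725 RPKM in LPS libraries labelled Lcn2-/-, against 0.768, 0.560, 0.552 and 0.519 RPKM in saline libraries of that label. In wild type, Kcnk6 had 0.795, 0.684, 0.775 and 0.766 RPKM after LPS, against 0.506, 0.682, 0.603 and 0.628 RPKM after saline. It was not called (0.091 ± 0.15 with the Lcn2-/- label, 0.33 ± 0.15 in wild type).

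Kcne2 showed the largest difference of all 72 genes in both LPS comparisons. Its protein is a single-pass auxiliary subunit of Kv channels, and in the brain it is known from the apical membrane of the choroid plexus, the epithelium that makes cerebrospinal fluid. It had 0.294, 0.621, 0.467 and 0.613 RPKM in LPS libraries labelled Lcn2-/-, against 2.57, 4.51, 2.67 and 2.45 RPKM in saline libraries of that label. In wild type, Kcne2 had 0.873, 0.762, 0.931 and 0.650 RPKM after LPS, against 2.28, 2.62, 2.62 and 2.48 RPKM after saline. No LPS library reached any saline library, and the log2 differences were -2.63 ± 0.22 (SE, adjusted p = 1.5e-07) under the Lcn2-/- label and -1.65 ± 0.22 (SE, adjusted p = 4.1e-05) in wild type, which are 6.18-fold and 3.13-fold lower levels. Saline replicate 2 labelled Lcn2-/- was the highest library, at 4.51 RPKM.

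Choroid plexus markers fell in part. Of 6, 3 fell in libraries labelled Lcn2-/- (Aqp1, Kcnj13, Otx2) and 2 in wild type (Kcnj13, Otx2). Kcnj13, the inward rectifier of the same apical membrane, gave -0.94 ± 0.19 (SE, adjusted p = 8.1e-04) with the Lcn2-/- label and -0.73 ± 0.19 (SE, adjusted p = 0.0094) in wild type. Ttr (transthyretin, the main secreted product of the plexus) gave -0.16 ± 0.068 (SE, adjusted p = 0.068) with the Lcn2-/- label and -0.15 ± 0.068 (SE, adjusted p = 0.13) in wild type. The marker sum was 463 to 473.9 RPKM and 415.9 to 455.6 RPKM after LPS, against 474.9 to 649.4 RPKM and 474.8 to 496 RPKM after saline, and the highest value belongs to the same saline library that was highest for Kcne2. Their part in the result was not tested. RefSeq gives Kcne2 more than 1 start, and the 250 bases before 2 of them (GRCm38.p6, plus strand, 5′ to 3′) are shown because this gene changed most, with the half-site in capitals as before.
Kcne2 start 1, chr16:92292139-92292388: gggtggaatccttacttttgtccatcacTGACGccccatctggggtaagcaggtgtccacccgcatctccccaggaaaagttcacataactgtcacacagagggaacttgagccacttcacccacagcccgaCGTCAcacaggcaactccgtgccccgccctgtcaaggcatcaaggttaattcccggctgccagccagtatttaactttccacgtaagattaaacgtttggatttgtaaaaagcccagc
Kcne2 start 2, chr16:92295366-92295615: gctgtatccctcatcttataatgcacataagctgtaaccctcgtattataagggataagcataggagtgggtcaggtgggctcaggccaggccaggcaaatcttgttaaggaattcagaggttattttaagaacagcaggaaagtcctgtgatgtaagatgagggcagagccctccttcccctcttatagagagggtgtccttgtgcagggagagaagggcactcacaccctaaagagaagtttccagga
The first holds 2 matches and the second none.

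Counting Kcne2, 13 of 17 auxiliary genes were tested, and 3 rose and 4 fell under the Lcn2-/- label, while 2 rose and 2 fell in wild type. These calls are 53.8% and 30.8%, beside 48.3% and 25.3% of all genes. The Kcnip genes encode calcium sensors that bind Kv4 channels. Kcnip1 had 6.13, 6.72, 6.41 and 6.11 RPKM in LPS libraries labelled Lcn2-/-, against 5.37, 5.17, 5.02 and 4.41 RPKM in saline libraries of that label. In wild type, Kcnip1 had 5.84, 5.72, 5.64 and 6.29 RPKM after LPS, against 5.64, 5.27, 6.02 and 5.43 RPKM after saline. It rose under the Lcn2-/- label (0.35 ± 0.062 SE, adjusted p = 2.8e-04), and the wild-type difference was 0.072 ± 0.062 (SE, adjusted p = 0.45). Kcnip3, also known as a calcium-dependent repressor of transcription, fell under both labels, -0.22 ± 0.035 (SE, adjusted p = 8.9e-05) with Lcn2-/- and -0.13 ± 0.035 (SE, adjusted p = 0.0097) in wild type. Kcnip4 had 25.1, 25.8, 26.1 and 25.7 RPKM in LPS libraries labelled Lcn2-/-, against 24.3, 24.1, 23.6 and 23.4 RPKM in saline libraries of that label. In wild type, Kcnip4 had 24.5, 24.5, 23.6 and 24.7 RPKM after LPS, against 25.2, 23.4, 25.1 and 22.9 RPKM after saline. It rose slightly with the Lcn2-/- label (0.11 ± 0.033 SE, adjusted p = 0.015) and was not called in wild type (0.014 ± 0.033 SE, adjusted p = 0.82).

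Kcnip2, the partner of Kv4 channels in forebrain, had 27.4, 24.0, 24.98 and 25.2 RPKM in LPS libraries labelled Lcn2-/-, against 27.5, 28.4, 28.3 and 28.8 RPKM in saline libraries of that label. In wild type, Kcnip2 had 27.9, 25.7, 27.7 and 25.4 RPKM after LPS, against 26.2, 25.4, 24.7 and 25.1 RPKM after saline. It fell under the Lcn2-/- label (-0.15 ± 0.041 SE, adjusted p = 0.0066), with all LPS libraries below the saline ones, and was not called in wild type (0.071 ± 0.041 SE, adjusted p = 0.24). Kcnab2, the most abundant gene of all, had 54.4, 50.8, 50.4 and 52.1 RPKM in LPS libraries labelled Lcn2-/-, against 48.8, 51.9, 49.1 and 43.8 RPKM in saline libraries of that label. In wild type, Kcnab2 had 56.0, 54.5, 55.7 and 54.3 RPKM after LPS, against 49.6, 49.7, 48.0 and 47.5 RPKM after saline. It rose in wild type (0.18 ± 0.042 SE, adjusted p = 0.0052) without overlap, and with the Lcn2-/- label missed the threshold (0.10 ± 0.042 SE, adjusted p = 0.055). Kcnab3 had 16.8, 15.9, 15.1 and 15.0 RPKM in LPS libraries labelled Lcn2-/-, against 13.5, 14.2, 13.4 and 16.1 RPKM in saline libraries of that label. In wild type, Kcnab3 had 15.4, 15.5, 15.3 and 16.3 RPKM after LPS, against 13.0, 13.7, 13.1 and 14.6 RPKM after saline. It was called in wild type (0.20 ± 0.057 SE, adjusted p = 0.017), not without LPS replicate 4 or saline replicate 1 or 3 (0.18, adjusted p 0.052 to 0.058), and missed the threshold under the Lcn2-/- label (0.14 ± 0.057 SE, adjusted p = 0.054).

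Kcnab1 had 12.6, 13.1, 13.0 and 12.6 RPKM in LPS libraries labelled Lcn2-/-, against 12.3, 11.3, 12.4 and 10.4 RPKM in saline libraries of that label. In wild type, Kcnab1 had 13.2, 13.0, 12.6 and 12.01 RPKM after LPS, against 12.7, 12.3, 11.8 and 12.1 RPKM after saline. Its call under the Lcn2-/- label (0.14 ± 0.050 SE, adjusted p = 0.026) ended without LPS replicate 2 or 3 or saline replicate 2 or 4 (0.095 to 0.14, adjusted p 0.058 to 0.067). Kcnrg, a soluble protein reported in human cells to hinder the assembly of Kv1 channels, had 0.297, 0.118, 0.159 and 0.315 RPKM in LPS libraries labelled Lcn2-/-, against 0.402, 0.230, 0.539 and 0.554 RPKM in saline libraries of that label. In wild type, Kcnrg had 0.551, 0.320, 0.414 and 0.288 RPKM after LPS, against 0.336, 0.358, 0.738 and 0.294 RPKM after saline. It reached the filter limit in 0 LPS and 2 saline libraries labelled Lcn2-/- and in 1 LPS and 1 saline library of wild type, so it passed mostly through the saline libraries. The groups overlapped; the call under the Lcn2-/- label (-0.99 ± 0.39 SE, adjusted p = 0.044) ended without any of 9 libraries, which were LPS replicates 2 and 3 of either label, saline replicates 1, 3 and 4 labelled Lcn2-/- and wild-type saline replicates 1 and 2 (-0.999 to -0.727, adjusted p 0.052 to 0.14). Kcnmb1, the smooth muscle subunit of the large-conductance channel, was not tested either. It had 0.130, 0.146, 0.167 and 0.204 RPKM in LPS libraries labelled Lcn2-/-, against 0.245, 0.209, 0.202 and 0.334 RPKM in saline libraries of that label. In wild type, Kcnmb1 had 0.146, 0.192, 0.181 and 0.135 RPKM after LPS, against 0.234, 0.289, 0.277 and 0.276 RPKM after saline. All lay under the filter limit, and the gene overlaps Kcnip1 on the opposite strand.

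Saline replicate 4 labelled Lcn2-/- was the highest of the 16 libraries for 27 of the 72 genes (37.5%), beside 26.8% of all genes tested, and the lowest for 10 (13.9%), beside 25.3%. It stood more than 0.5 on the log2 scale above the mean of replicates 1 to 3 for 12 genes and below for 2 (Kcne4 and Kcnk4). The 12 include Kcna2, Kcna3, Kcnh5, Kcnh6, Kcnj6, Kcnk9, Kcnk10, Kcnma1, Kcnmb2, Kcnn3 and Kcnrg. Kcna2 stood at 7.30 RPKM there, against a geometric mean of 1.62 RPKM in the other 3, and Kcnma1 at 5.61 RPKM against 2.48 RPKM. The sum of neuronal markers was 904.6 RPKM in this library and 951.3 to 975.7 RPKM in the others of its group. Without it, 31 genes were called after LPS with the Lcn2-/- label, 8 higher and 23 lower, of which 30 were called with it. Kcnab1, Kcnk10, Kcnn3 and Kcnrg were among those lost, and Kcnab3 was gained. Over all 17261 genes tested without this library, 3585 were higher and 4867 lower.

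**Figure D4:**
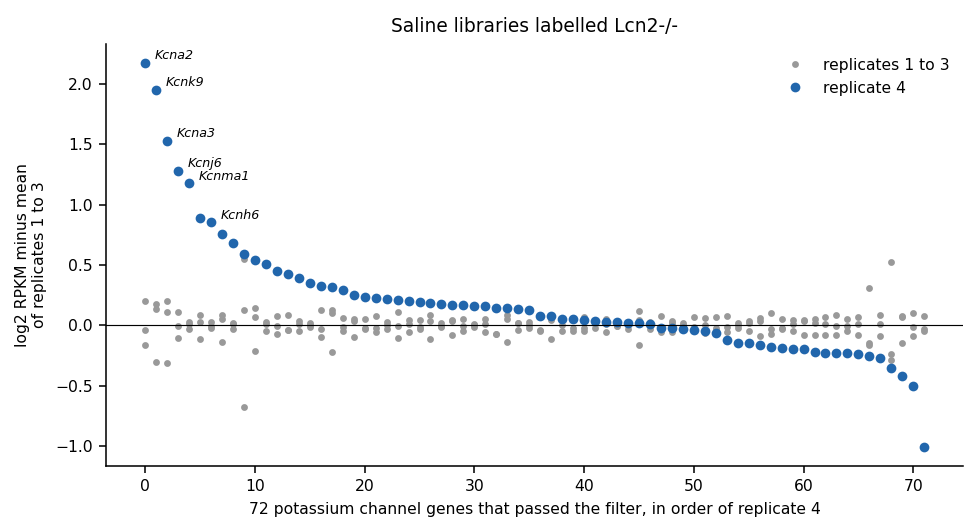
Log2 RPKM of 72 potassium channel genes in the 4 saline libraries labelled Lcn2-/-, less the mean of replicates 1 to 3, in the order of replicate 4 (blue; replicates 1 to 3 in grey). Replicate 4 lies more than 0.5 above that mean for 12 genes, led by Kcna2, Kcnk9 and Kcna3, and more than 0.5 below it for 2.

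Between the genotype labels after saline, 0 of the 72 genes were called by limma, beside 0.0461% of all genes tested. An unadjusted p under 0.05 was found for 14 of the 72, beside 1897 of all 17349 genes tested. Without saline replicate 4 labelled Lcn2-/- it was found for 7 of the 72, beside 1779 of 17261. With all 16 libraries, the groups did not overlap for 6 genes (8.33%), beside 5.19% of all genes. Among them Kcnf1, Kcnh4, Kcnip2 and Kcnma1 were higher with the Lcn2-/- label and Kcnj14 lower. After LPS, 8 were called, 1 higher and 7 lower with the Lcn2-/- label. That is 11.1%, beside 15.8% of all genes (7.04% higher, 8.74% lower). The groups did not overlap for 12 (16.7%), beside 28.0% of all genes. These LPS libraries also enter the LPS comparisons above, so the genotype values are not independent of them. Single libraries moved these counts: 4 were lower without LPS replicate 2 or 3 labelled Lcn2-/- or wild-type LPS replicate 1, and 2 without wild-type LPS replicate 3. Over all genes, 801 to 948 were lower in these fits, against 1517 with all libraries. Without saline replicate 4 labelled Lcn2-/-, which enters this comparison only through the shared spread, 2 were higher and 12 lower, beside 2375 higher and 2794 lower of all 17261 genes tested then. Without LPS replicate 4 labelled Lcn2-/- or wild-type LPS replicate 2, 2 were higher.

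After LPS, Kcna6 was the gene that lay higher with the Lcn2-/- label, at 15.2, 15.4, 16.01 and 15.4 RPKM in LPS libraries labelled Lcn2-/-, against 13.3, 13.8, 14.4 and 13.6 RPKM in wild-type LPS libraries, a log2 difference of 0.17 ± 0.037 (SE, adjusted p = 0.0063). Its antisense neighbour Gm26673 gave -0.028 ± 0.095 (SE, adjusted p = 0.87) in this comparison. Kcnj9 was lower, at 16.2, 12.9, 12.9 and 14.9 RPKM in LPS libraries labelled Lcn2-/-, against 18.1, 17.5, 18.4 and 17.2 RPKM in wild-type LPS libraries (-0.33 ± 0.067 SE, adjusted p = 0.0047), and so was Kcnj11, at 5.87, 5.19, 5.70 and 5.23 RPKM in LPS libraries labelled Lcn2-/-, against 6.75, 7.19, 6.65 and 7.02 RPKM in wild-type LPS libraries (-0.33 ± 0.076 SE, adjusted p = 0.0098). These 3 calls held without each single library. Kcna4 (-0.36 ± 0.091 SE, adjusted p = 0.015) and Kcnk1 (-0.12 ± 0.030 SE, adjusted p = 0.016) were lower too and their groups did not overlap. The call of Kcna4 ended without LPS replicate 2 labelled Lcn2-/- or wild-type LPS replicate 3 (-0.32 to -0.31, adjusted p 0.053), and that of Kcnk1 without wild-type LPS replicate 3 (-0.096, adjusted p = 0.055).

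The other calls between labels after LPS ended without more of the libraries, and each was also lost with no filter on low values. Kcne2, at 0.294, 0.621, 0.467 and 0.613 RPKM in LPS libraries labelled Lcn2-/-, against 0.873, 0.762, 0.931 and 0.650 RPKM in wild-type LPS libraries, gave -0.74 ± 0.22 (SE, adjusted p = 0.037), and the call ended without any of 5 LPS libraries (labelled Lcn2-/- replicates 1 and 3, wild-type replicates 1, 2 and 3; -0.76 to -0.50). Kcnv1 gave -0.26 ± 0.081 (SE, adjusted p = 0.038), with overlap, and its call also ended without any of 5 (labelled Lcn2-/- replicates 2, 3 and 4, wild-type replicates 1 and 3; -0.26 to -0.22). Kcnj2, a strong inward rectifier of neurons and vessels, had 2.12, 1.71, 1.71 and 1.72 RPKM in LPS libraries labelled Lcn2-/-, against 1.94, 1.94, 2.11 and 2.68 RPKM in saline libraries of that label. In wild type, Kcnj2 had 2.59, 2.12, 2.40 and 2.14 RPKM after LPS, against 2.59, 2.05, 2.06 and 2.24 RPKM after saline. It gave -0.35 ± 0.11 (SE, adjusted p = 0.049) between the labels after LPS, was called in neither LPS comparison, and its call ended without any of 13 libraries, which are all but LPS replicate 1 and saline replicate 4 labelled Lcn2-/- and wild-type saline replicate 1 (-0.39 to -0.29).

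The interaction, the LPS difference with the Lcn2-/- label minus that in wild type, was called for 7 genes (1 positive, 6 negative), or 9.72%, beside 8.82% of all genes (3.90% positive, 4.92% negative). It was positive for Kcna6 (0.18 ± 0.052 SE, adjusted p = 0.045), whose fall was smaller with the Lcn2-/- label. It was negative for Kcna5 (-0.61 ± 0.18 SE, adjusted p = 0.047), whose rise was smaller with that label. For Kcna4 (-0.45 ± 0.13 SE, adjusted p = 0.044) and Kcnj9 (-0.44 ± 0.10 SE, adjusted p = 0.014) it was negative and the fall was larger with that label. For Kcnj11 (-0.41 ± 0.11 SE, adjusted p = 0.030), Kcnf1 (-0.32 ± 0.088 SE, adjusted p = 0.039) and Kcnip2 (-0.22 ± 0.059 SE, adjusted p = 0.030) it was negative and a fall was called under the Lcn2-/- label but not in wild type. Kcnf1 and Kcnip2 also lay higher in every saline library labelled Lcn2-/- than in every wild-type saline library, and these saline values enter the interaction. The saline values of Kcna5 enter it as well. They overlapped, at 1.34 to 1.95 RPKM labelled Lcn2-/- and 1.17 to 1.52 RPKM in wild type. Region markers moved in the same test: the interaction was negative for 3 of 6 striatal markers (Drd1, Drd2, Ppp1r1b; median of the 6, -0.20) and positive for 2 of 3 Purkinje cell markers (Pcp2, 0.39 ± 0.074; Calb1, 0.27 ± 0.081), and their part in these 7 calls was not tested. Kcnj9 alone kept its call without each single library; the other 6 lost theirs without LPS replicate 2 labelled Lcn2-/-, wild-type LPS replicate 1, or wild-type saline replicate 3 or 4, and each without 2 to 8 further single libraries. The count was 1 to 4 without any of 10 single libraries (LPS replicates 2, 3 and 4 labelled Lcn2-/-, each wild-type LPS replicate and wild-type saline replicates 2, 3 and 4). Over all genes, these fits gave 351 to 582 positive and 389 to 756 negative calls, against 677 and 853 with all libraries. Without saline replicate 4 labelled Lcn2-/-, 10 genes were called, with Kcna5 lost (-0.53 ± 0.17, adjusted p = 0.054) and Kcna2, Kcne2, Kcnk1 and Kcnma1 gained. Over all 17261 genes tested in that fit, 1049 were positive and 1221 negative.

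**Figure D5:**
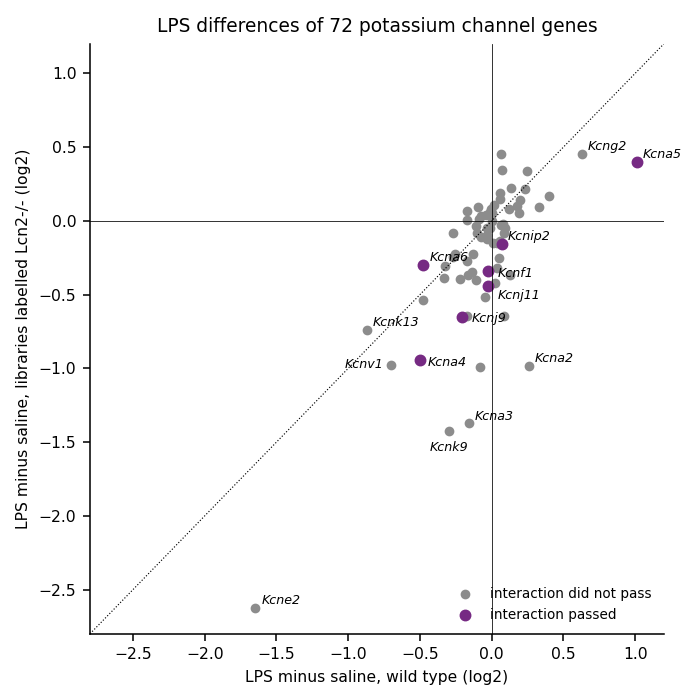
Log2 differences (LPS minus saline) of 72 potassium channel genes with the Lcn2-/- label (vertical axis) against wild type (horizontal axis); the dotted line marks equal differences and purple points are the 7 genes with a called interaction. Kcne2 and Kcnk9 lie far below the line, yet their interaction was not called. Kcna3 also lies far below it, as a description with no test.

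Genes that work with these channels gave mixed counts. Over all genes, 48.3% were called after LPS with the Lcn2-/- label (20.7% higher, 27.7% lower) and 25.3% in wild type (11.4% higher, 13.9% lower). Of 11 partner proteins 10 were tested, and under the Lcn2-/- label 1 rose (Dpp6, a Kv4 partner, 0.15 ± 0.042) and 5 fell: Abcc9 (the sulfonylurea receptor of vascular ATP-sensitive channels, -0.41 ± 0.14), Lrrc55 (a gamma subunit of Kcnma1 channels, -0.69 ± 0.075), Lgi1 (-0.11 ± 0.038), Cntnap2 (which gathers Kv1 channels beside nodes of Ranvier, -0.17 ± 0.048) and Amigo1 (a Kv2 partner, -0.25 ± 0.037). In wild type 2 fell, Lrrc55 (-0.55 ± 0.075) and Lgi1 (-0.12 ± 0.038). Of 4 HCN genes, the related pacemaker channels, Hcn3 (-0.59 ± 0.12) and Hcn4 (-0.57 ± 0.16) fell with the Lcn2-/- label, and Hcn4 (-0.65 ± 0.16) in wild type. Of 6 sodium-potassium pump genes 0 were called with the Lcn2-/- label, and in wild type Atp1b3 fell (-0.12 ± 0.037). Of 5 cation-chloride cotransporters 2 fell with the Lcn2-/- label, among them Slc12a5 (the chloride exporter of mature neurons, -0.21 ± 0.029), and 0 in wild type.

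Several features that did not enter the choice of genes by symbol were compared. Level did enter the choice of genes tested, through the filter at 0.5 RPKM. By level, the calls with the Lcn2-/- label were 8 of 15 at 16 RPKM or more, 10 of 24 between 4 and 16, 15 of 22 between 1 and 4 and 3 of 11 tested under 1 RPKM, and 13 of the 28 falls lay between 1 and 4 RPKM. The 3 calls under 1 RPKM include Kcna3 and Kcnrg, which passed the filter only or mostly through saline libraries. Calls of all genes by level were not counted, so these counts have no share beside them. The median size of the log2 difference was 0.11, 0.13, 0.39 and 0.35 in these classes, and the median SE 0.041, 0.062, 0.11 and 0.20. Tested potassium channel genes had a median of 3935 exon bases and 52.1% GC, against 2957 bases and 49.8% over all genes tested. Those that fell with the Lcn2-/- label had 54.4% GC and 3888 bases, those that rose 52.2% and 3918 bases, and those not called 51.3% and 4052 bases. Besides Kcna6, exon bases were held in common with another gene by, among others, Kcnj3 (31.1%, Gm26794), Kcnmb4 (20.9%, Kcnmb4os2; 10.7%, Kcnmb4os1), Kcnk4 (13.2%, Catsperz) and Kcnk2 (12.2%, A430027H14Rik), so their levels may include reads of those genes.

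Promoter windows of 250 bases were given by RefSeq for 66 of the 91 genes (91 windows). On both strands, the half-site TGACG was found in 13 of these windows (14.3%), beside 17.8% of all 32851 windows, and TATAAA in 2 (2.2%), beside 12.4%. The NF-kB core (GGG and TTTCC with any 2 bases between them), the motif of a main inflammatory transcription factor, was found in 0 windows, beside 1.41%. The glucocorticoid response element (AGAACA and TGTTCT with any 3 bases between them) was found in 0, beside 3 of all 32851 windows (0.00913%). At shares this low, few or 0 matches were likely in 91 windows, so neither 0 is read as a lack of the motif. The motifs do not overlap one another in the windows printed, where the half-site alone was found. These counts describe letters in a short window and say nothing of whether a factor binds there.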

How the data were processed

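RNA-seq was done on 16 hemi-brain libraries, 4 per group, grouped by the genotype and injection in the labels. Per the labels' protocols, sonicated tissue gave total RNA, treated with DNase I in the column, for Illumina libraries. The deposited values are log2 RPKM, which the authors adjusted by conditional quantile normalization, by the name of their table; the column headers speak of gene counts, but the values are neither whole nor positive throughout. The build is mm10, per the submitters' processing notes. For aligner, counter, strandedness and depth nothing is stated, so no interval for counting error is given and the number of libraries limits the precision.

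Gene IDs were matched to GENCODE vM21 (32695 of 33289), which gave symbols, biotypes and exon lengths, and 17349 genes with a log2 RPKM of -1 or more (0.5 RPKM) in at least 3 libraries were tested. One limma fit (3.58.1, R 4.3.3) of the 4 group means over all 16 libraries, with a trended empirical Bayes prior, gave 5 comparisons, each two-sided. P-values were adjusted by Benjamini-Hochberg over all genes tested, and an adjusted p under 0.05 was called. Differences are on the log2 RPKM scale, with no added pseudocount. The fit was tested on simulated data. RPKM values are powers of 2 of the deposited values.

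The potassium channel genes, the gene lists and the markers were chosen with earlier results of these data known. The 35 genes given with every library were those with the largest called differences (8 in each direction for LPS, 6 for genotype and interaction), the most abundant of each family and a list of genes of non-neuronal cells; Kcnma1 was added after its values were seen, and others are given by their test alone. Some genes that enter the counts are not reported here by name. The half-site motif was chosen after its matches were seen. Alternatives were no filter, a stricter filter (log2 RPKM of 0 or more in at least 4 libraries), log2(RPKM + 0.5), log2(RPKM + 0.1), quantile normalization, median centring, removal of GC content and length trends (loess, span 0.5), a prior without trend, array quality weights, only the groups compared, and leaving out each library. Replicate numbers follow deposit order.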

Additional observations from a re-analysis of the deposited data

Results flagged for a closer look

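Of 140 sets of 4 libraries (35 genes in 4 groups), 7 held a library far from the others of its group, by Dixon's criterion for the gap to the nearest library; chance gives about 1 in 20. Of these, 2 were saline replicate 4 labelled Lcn2-/-, where Kcna1 stood at 4.803 and Kcna2 at 2.869 (log2 RPKM), each the highest of its group. Kcne2 in saline replicate 2 labelled Lcn2-/- stood at 2.175. In LPS libraries labelled Lcn2-/-, Kcnj2 stood at 1.082 in replicate 1 and Kcnk13 at 0.0869 in replicate 3, both high, and Kcnk1 at 4.922 in replicate 4, low. Kcnh3 stood high, at 4.088, in wild-type saline replicate 1.

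For 7 genes the LPS difference differed between the genotype labels by the interaction test in limma. The difference with the Lcn2-/- label minus that in wild type was 0.1779 for Kcna6 (log2). It was -0.4472 for Kcna4, -0.6132 for Kcna5, -0.315 for Kcnf1, -0.2248 for Kcnip2, -0.4113 for Kcnj11 and -0.4411 for Kcnj9.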

How the results depend on the processing

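Of the 36 calls after LPS with the Lcn2-/- label, 26 held under every alternative in which they were tested, and of the 20 in wild type 15 did. The 36 and the 26 both count Kcna3, whose difference is a description with no test because it passed the filter only through saline libraries. After LPS, 3 of 8 calls between the labels held throughout (Kcna6, Kcnj9, Kcnj11), and 1 of 7 interactions (Kcnj9). No called difference changed its sign under any of them. The count of genes lower after LPS in wild type was 22 with no filter, where 19 more genes were tested and 11480 of all 33289 genes were lower. After LPS, the count lower with the Lcn2-/- label was 4 with no filter and 2 to 12 with single libraries left out, and the count higher was 2 with GC content and length trends removed or with array quality weights, and 1 to 2 with single libraries left out. Over all genes, 1143 of 33289 were lower with no filter. Higher were 1509 of 17157 with the trends removed and 2393 of 17349 with the weights. The interaction count was 2 with no filter, 3 without the trended prior, 15 with array quality weights and 1 to 10 with single libraries left out. Over all genes, calls moved too, from 677 positive and 853 negative in the main fit. They were 418 and 487 with no filter, 606 and 727 without the trended prior, and 1383 and 1647 with the weights. With single libraries left out they were 351 to 1049 and 389 to 1221. Why these counts moved was not tested. The interaction needs all groups, so no fit of the compared groups alone was run for it. No paired analysis was possible because the labels number no replicates. Without counts, how far depth limits the genes under 0.5 RPKM is not known.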
